A study of Homo sapiens with 12 samples.

Results

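The replication-dependent histone genes are the clustered genes for the linker histone H1 and the core histones H2A, H2B, H3 and H4. They were chosen by symbol alone, as genes named with the stems H1, H2AC, H2BC, H3C or H4C and a number in the deposited table of each cell line. The rule found 59 genes among the 26115 symbols that both tables share, of which 6 encode H1, 15 H2A, 16 H2B, 11 H3 and 11 H4. H3C3 and H3C11 matched the rule in 1 table each, never above 0.551 FPKM, and were left out. FPKM counts fragments relative to the length of a transcript and the size of the library.

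Both cell lines, KYSE150 and KYSE410, are established lines of human esophageal squamous cell carcinoma, labelled wild type. Each line was cultured in 21% oxygen (normoxia) or in 0.5% oxygen (hypoxia), with 3 libraries in each of the 4 groups. The labels give 48 h for hypoxia and time 0 for normoxia, while the series description has both incubated alike. Each library was made from TRIzol RNA captured on mRNA beads, which hold RNA by its poly(A) tail. No label says that replicates were separate cultures, so p-values measure only the spread between these libraries, which may be technical.

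Most mRNAs of these genes end in a conserved stem-loop and carry no poly(A) tail. The stem-loop is bound by SLBP, and the transcript is cut a few bases after it by a complex that contains the U7 small nuclear RNA. The transcripts are made in S phase, when new DNA is packed into nucleosomes, and are degraded when replication stops. Some histone genes can also give polyadenylated mRNA that reads past the stem-loop. Bead capture therefore samples these genes incompletely, and the values below are levels in captured RNA. They cannot tell a change in total histone mRNA from a change in its polyadenylated share. In bulk RNA, the share of cells in S phase and the amount of mRNA per cell cannot be told apart either.

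The sequences that set these transcripts apart lie just after the coding end. In GENCODE 29 models on hg38, a stem-loop was sought with the letters GGNNNTTNNNANNNCC and arms that are reverse complements. It was present in 27 of the 32 histone genes whose model reaches far enough past the coding end (84.4%), against 89 of 19394 protein-coding genes (0.459%). The examples below belong to genes described in detail further on, of which H2BC21, H2AC18 and H2BC5 rose in both lines, H4C14 fell in both and H4C8 moved in opposite directions. Capitals mark the stem-loop.
H2BC21, chr1:149886188-149886203, minus strand: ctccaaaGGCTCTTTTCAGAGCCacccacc
H2AC18, chr1:149842223-149842238, minus strand: ctcaaaaGGCTCTTTTCAGAGCCacccacg
H2BC5, chr6:26158587-26158602, plus strand: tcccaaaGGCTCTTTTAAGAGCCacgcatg
H4C14, chr1:149833032-149833047, plus strand: tcccaaaGGCCCTTTTTAGGGCCgaccact
H4C8, chr6:26285131-26285146, minus strand: aaccaaaGGCCCTTTTCAGGGCCgcccact

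Of the 27 stem-loops, 15 have the core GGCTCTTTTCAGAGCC and 4 have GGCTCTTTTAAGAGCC. The 7 stem-loops of H4 genes have cores found in no other class, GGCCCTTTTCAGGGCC in 4 genes and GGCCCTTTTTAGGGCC in 3. H3C6 alone has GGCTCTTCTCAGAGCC.
The annotated transcripts differ in what follows the loop. For H2BC21 the model runs 1729 bases further and ends with the poly(A) signal AATAAA, in capitals here.
H2BC21 end, chr1:149884459-149884488, minus strand: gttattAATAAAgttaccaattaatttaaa
For H2AC18 the model runs 35 bases past the loop but also ends with that signal.
H2AC18 end, chr1:149842188-149842217, minus strand: cgttttcaAATAAAagagttgttaatgctg

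Depth is unknown, because the values do not move in steps of whole reads. Column sums lay between 351501 and 425094 FPKM, and same-group libraries correlated at r = 0.991 to 0.997 across genes, which are not independent replicates. The lowest correlations were those of KYSE150 normoxia replicate 2. The hypoxia marker CA9, a carbonic anhydrase, had 9.80 ± 0.292 FPKM in KYSE150 normoxia and 76.8 ± 4.24 in hypoxia, and its KYSE410 levels were 4.05 ± 0.353 and 54.7 ± 4.99 (SD, n = 3). Of 7 epithelial markers, some of them squamous, all averaged at least 1 FPKM in KYSE410. In KYSE150 only EPCAM, KRT8 and KRT18 did, and CDH1, KRT5, KRT14 and TP63 did not. There KRT5, a basal keratin, was listed at 0 in normoxia, and TP63, the squamous lineage factor, reached at most 0.361 FPKM. Fibroblast markers summed to at most 8.20 FPKM and endothelial markers to at most 0.143 in any library. The leukocyte list summed to 15.8 to 17.8 FPKM in KYSE150 normoxia and 27.3 to 31.0 in hypoxia, and to 29.8 to 32.7 and 80.8 to 85.6 in KYSE410, where in each case CD68 was its only gene with a mean of at least 1 FPKM. PTPRC, the pan-leukocyte marker, stayed at 0.0486 FPKM or below. Sample-sheet numbers in the labels are 50 to 55 for KYSE150, but 38 to 40 for KYSE410 normoxia and 56 to 58 for KYSE410 hypoxia. In KYSE410, oxygen and the library set inferred from these numbers cannot be told apart.

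Together the 59 genes made up a small part of each library. They held 0.125 to 0.131% of all FPKM in KYSE150 normoxia and 0.143 to 0.159% in hypoxia. In KYSE410 the normoxic share was 0.0719 to 0.0768% and the hypoxic one 0.197 to 0.202%. The 10 highest genes carried most of it, 84.3% in KYSE150 and 88.6% in KYSE410.

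The classes moved differently. In KYSE150 hypoxia the summed level of H2A went from 93.0 ± 5.54 to 186 ± 10.9 FPKM (SD, n = 3), a ratio of 2.003. H2B moved by a like ratio, from 87.6 ± 5.47 to 173 ± 15.5 FPKM (1.97). The H4 sum was 178 ± 21.0 FPKM in normoxia and 75.1 ± 3.77 in hypoxia, a ratio of 0.421. H1 and H3 stayed close to their normoxic sums, at 119 ± 16.8 and 117 ± 6.53 FPKM for H1 and 10.8 ± 1.54 and 12.5 ± 0.877 for H3. The 3 normoxic and 3 hypoxic sums were apart for H2A, H2B and H4 and overlapped for H1 and H3.

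In KYSE410 all 5 class sums were higher in each hypoxic library than in any normoxic one. H2A went from 46.7 ± 2.98 to 249 ± 5.03 FPKM (ratio 5.33) and H1 from 71.9 ± 6.59 to 303 ± 2.29 (ratio 4.21). H2B went from 114 ± 4.82 to 246 ± 5.75 FPKM, a ratio of 2.15. H3 was low throughout, at 7.71 ± 0.154 and 14.8 ± 0.408 FPKM (ratio 1.93). The H4 sum, which was lower with hypoxia in KYSE150, was 20.4 ± 1.71 FPKM in normoxia and 27.7 ± 0.830 in hypoxia, a ratio of 1.36. A few genes set each sum. H1-2 held 98.4% and 97.9% of H1 FPKM in KYSE150 and KYSE410, and H2AC18, H2AC19 and H2AC6 held 84.5% and 91.1% of H2A. H2BC12 held 33.5% and 47.6% of H2B.

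**Figure D1:**
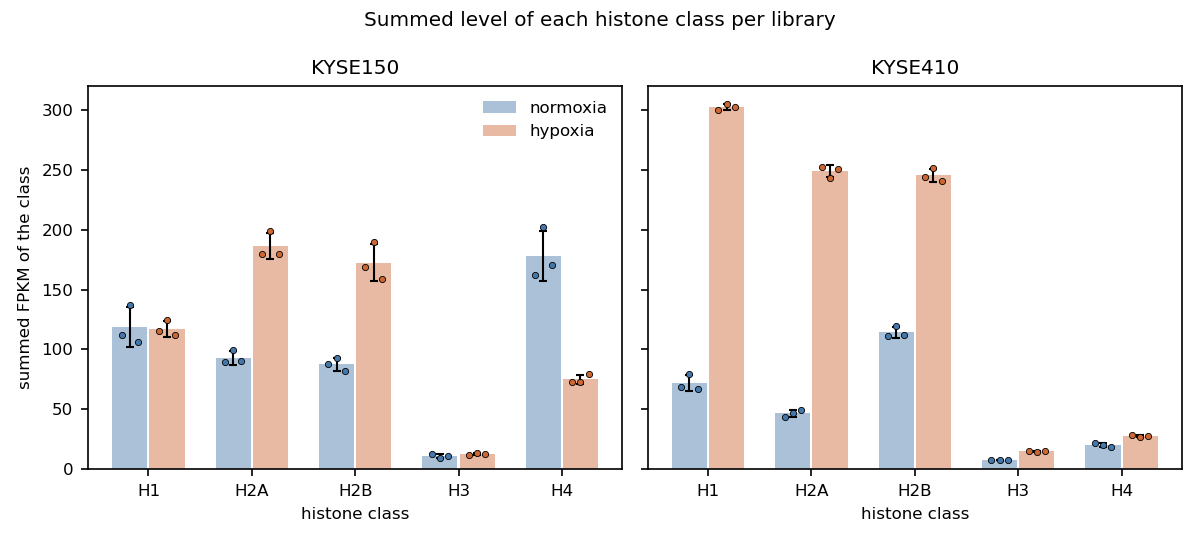
Summed FPKM of each histone class (x axis) per library in KYSE150 and KYSE410; points are the 3 libraries of a group, bars their mean and error bars the SD. The H4 bar is at 178 FPKM in KYSE150 normoxia and 75.1 in hypoxia, while in KYSE410 the H2A bars are at 46.7 and 249 and the H1 bars at 71.9 and 303.

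Gene by gene, a mean of at least 1 FPKM over the 6 libraries of a line was needed for a test. In KYSE150 33 histone genes passed and in KYSE410 29, with 27 passing in both and 24 in neither. This filter uses levels from both groups, so a gene that is high in only 1 group can pass through it. Just inside it were H2AC15 at 1.05 FPKM in KYSE150 and H2AC13 at 1.05 in KYSE410. Just outside were H1-4 at 0.979 and H3C6 at 0.826 FPKM. The 24 genes that passed in neither line were 4 of H1, 6 of H2A, 5 of H2B, 5 of H3 and 4 of H4, and their highest library value was 1.66 FPKM, for H3C6 in KYSE410 normoxia. Changes are on the log2(FPKM + 1) scale, hypoxia minus normoxia, from limma with Benjamini-Hochberg adjustment over all tested genes, and a call is an adjusted p under 0.05. The scale understates the change of low genes.

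In KYSE150, 15 of the 33 tested histone genes were called higher in hypoxia, where 23.5% of all tested genes were. There were 6 called lower, against 38.8% of all tested genes, and 12 were not called. The median change of the 33 was 0.43, against -0.13 for all 12692 genes tested. In KYSE410, 20 of 29 were called higher, against a background of 31.2%, and 5 lower, against 51.9%. Their median was 1.03, against -0.21 over 12054 genes. Rises of at least 1 on the log2 scale were called for 11 and 15 histone genes, against backgrounds of 4.49% and 6.29%. Among those in KYSE410, H2AC7, H2AC8, H2BC7, H2BC9, H2BC18, H3C4 and H4C5 had normoxic means of 0.147 to 0.977 FPKM. These genes passed the filter of 1 FPKM only through their hypoxic levels, as did H2BC7 in KYSE150 (0.617 FPKM in normoxia). Such genes can enter the test only as rises. Because 62.3% and 83.1% of all tested genes were called in some direction, a call by itself is common in these data. Counting all 59 genes without the filter, the 3 hypoxic values lay above all normoxic ones in 22 genes in KYSE150 and 26 in KYSE410, against 15.6% and 19.6% of all listed genes, and below them in 8 and 6, against 25.6% and 28.8%.

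Transcript length moves with these changes in KYSE410. There the 907 tested genes with transcripts up to 1000 nt had a median change of 0.46, against -0.36 for the 6664 over 3000 nt, while in KYSE150 the medians were -0.06 and -0.10. The longest annotated transcripts of the tested histone genes ran from 312 nt (H4C12) to 4137 nt (H2BC15), and lay on both sides of 1000 nt. With a length trend removed, 17 histone genes were called higher and 6 lower in KYSE410, and 20 and 6 in KYSE150. The background also moved with this setting. Of all genes tested, 4794 of 11589 were then called higher and 4697 lower in KYSE410, and 4177 and 4129 of 12183 in KYSE150.

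**Figure D2:**
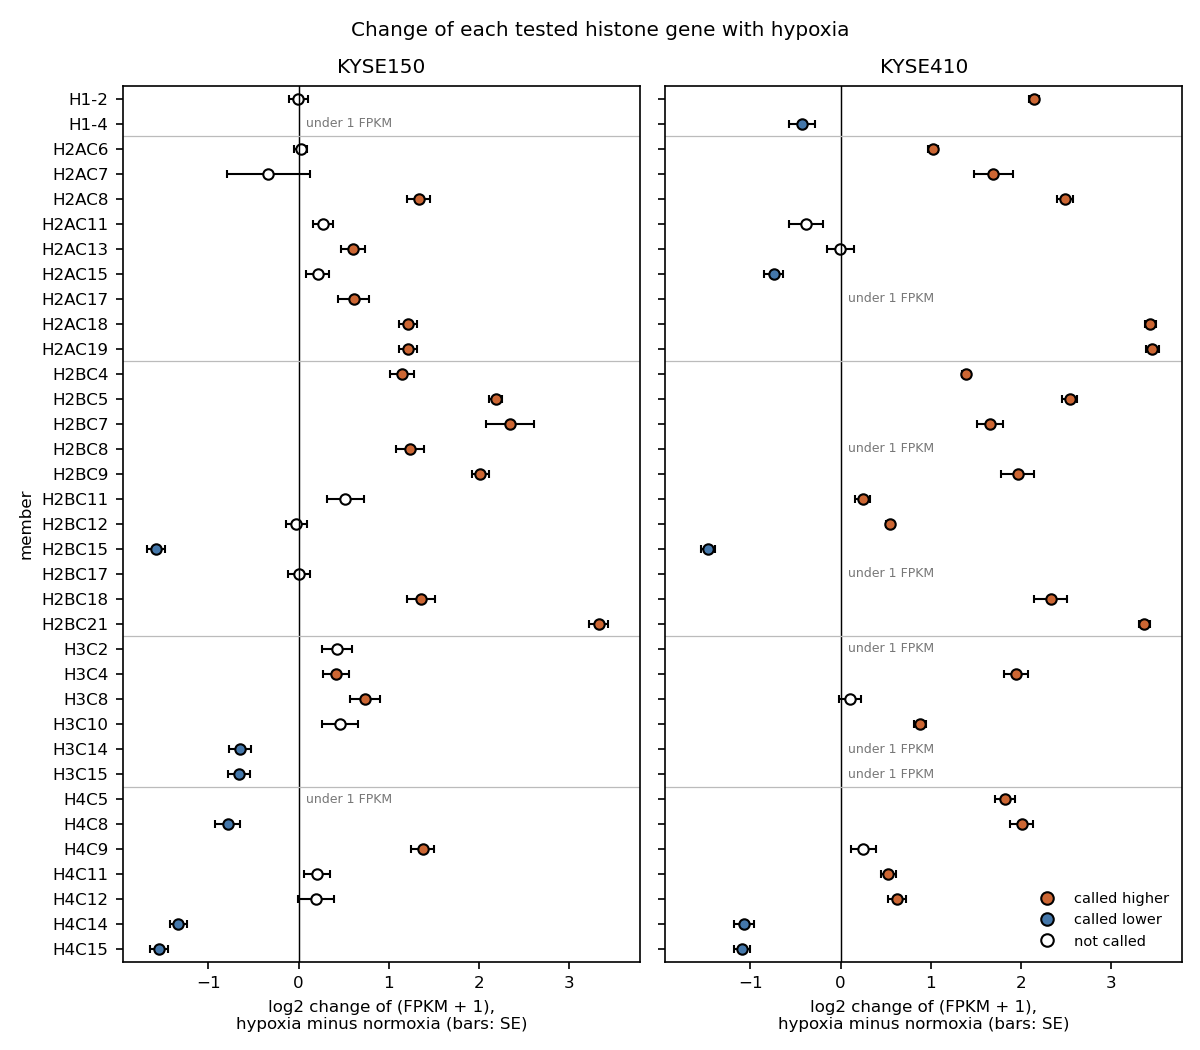
Change of each tested histone gene with hypoxia on the log2(FPKM + 1) scale (x axis, bars show the SE) by gene (y axis, grouped by class), in KYSE150 and KYSE410. Filled points were called by limma; H2BC21 rises by over 3 in both lines, H4C14 and H4C15 fall in both, and H4C8 falls in KYSE150 and rises in KYSE410.

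Linker histone H1 binds DNA where it enters and leaves the nucleosome. Among its 6 genes only H1-2 was abundant. H1-2 (chr6:26055787-26056428, minus strand, 1 exon) had 109.9, 135 and 104 FPKM in KYSE150 normoxia and 114, 123 and 110.5 in hypoxia. These groups overlapped, and the log2 change was -0.00 ± 0.11 (SE; limma, adjusted p = 0.989). In KYSE410 the normoxic values were 64.1, 74.3 and 63.2 FPKM and the hypoxic ones 298, 301 and 299. All hypoxic libraries were far above the normoxic ones, with a rise of 2.14 ± 0.06 (adjusted p = 1.207e-08). The rise was 2.14 ± 0.13 larger in KYSE410 than in KYSE150 (limma, interaction of line and oxygen, adjusted p = 1.150e-07). H1-4, another somatic H1, was measurable in KYSE410, with normoxic values of 4.69, 4.95 and 3.88 FPKM and hypoxic ones of 2.31, 3.91 and 3.19. Although called lower (-0.43 ± 0.14, adjusted p = 0.0209), its groups overlap, and the call was lost when KYSE410 normoxia replicate 1, normoxia replicate 2 or hypoxia replicate 1 was left out (-0.40, -0.37 and -0.28). It was also lost under median-of-ratios and quantile scaling (adjusted p = 0.114 and 0.544).

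H2A forms the dimer with H2B that flanks the H3-H4 core of the nucleosome. Of 9 H2A genes tested in KYSE150, 5 were called higher and none lower (all tested genes: 23.5% higher and 38.8% lower). Of 8 in KYSE410, 5 were higher and 1 lower (all tested genes: 31.2% and 51.9%). Among those in KYSE410, H2AC7 and H2AC8 passed the filter only through their hypoxic levels. H2AC18 and H2AC19 on chromosome 1 led the class. H2AC18 (chr1:149842188-149842736, minus strand) had 27.3, 34.3 and 27.7 FPKM in KYSE150 normoxia and 68.5, 73.5 and 67.9 in hypoxia. In KYSE410 it went from 7.15, 7.60 and 8.68 to 95.7, 91.5 and 94.6 FPKM. The groups were apart in both lines, and the rises were 1.21 ± 0.10 and 3.43 ± 0.06 (limma, adjusted p = 3.500e-05 and 2.980e-09). H2AC19 (chr1:149851061-149851624, plus strand) gave nearly the same values, with rises of 1.21 and 3.45. The coding sequences of these 2 genes are identical over 390 bases, so reads could be split or shared between them, and their separate values are uncertain.

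H2AC6 and H2AC8 lie in the chromosome 6 cluster. H2AC6 had 18.4, 18.96 and 18.1 FPKM in KYSE150 normoxia and 18.9, 19.9 and 17.7 in hypoxia, which overlap. In KYSE410 the values were 19.8, 22.7 and 22.9 FPKM, then 44.8, 44.7 and 46.4, a rise of 1.03 ± 0.06 (limma, adjusted p = 4.694e-07). H2AC8 was at 4.30, 4.95 and 5.06 FPKM in KYSE150 normoxia and 11.3, 16.1 and 13.5 in hypoxia. It was close to 0 in KYSE410 normoxia (0.101, 0.260 and 0.0790 FPKM) and reached 5.55, 5.78 and 4.97 FPKM in hypoxia. H2AC8 rose in both lines, by 1.33 ± 0.13 and 2.49 ± 0.09 (limma, adjusted p = 7.343e-05 and 4.421e-08).

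H2AC11, with 4.76 ± 0.634 and 5.93 ± 0.554 FPKM in KYSE150 and 5.04 ± 0.0676 and 3.76 ± 1.39 in KYSE410 (SD, n = 3), was called in neither line (0.27 and -0.39; limma, adjusted p = 0.0597 and 0.0845). These values depended on single libraries and on scaling. In KYSE150 it was called higher without normoxia replicate 3 (0.36, adjusted p = 0.0242), under median-of-ratios and quantile scaling (0.42 and 0.39) and with the length trend removed (0.45). In KYSE410 it was called lower without hypoxia replicate 1 (-0.59, adjusted p = 0.0079) and under a common sum (-0.58). H2AC7 in KYSE150 rested on uneven normoxic libraries, at 3.40, 0.0821 and 2.15 FPKM. Without normoxia replicate 2 its change of -0.33 became -0.93 and was called lower (adjusted p = 0.0018). In KYSE410 H2AC7 rose by 1.69 ± 0.22 (limma, adjusted p = 1.057e-04), although a gene on the same strand overlaps it. H2AC13 and H2AC17 rose in KYSE150 by 0.60 and 0.61. H2AC17 was no longer called without hypoxia replicate 3 (adjusted p = 0.0501). H2AC15, which overlaps H2BC15 on the other strand, was the H2A gene called lower, in KYSE410, from 2.34 ± 0.282 to 1.01 ± 0.231 FPKM.

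H2B, the partner of H2A, had most of the genes called higher in both lines. In KYSE150 7 of 11 were called higher and 1 lower (all tested genes: 23.5% higher and 38.8% lower). In KYSE410 8 of 9 were higher and 1 lower (all tested genes: 31.2% and 51.9%). Of these, H2BC7, H2BC9 and H2BC18 in KYSE410 and H2BC7 in KYSE150 passed the filter only through their hypoxic levels. H2BC21 (chr1:149884459-149886652, minus strand, 1 exon) had 4.05, 3.18 and 4.16 FPKM in KYSE150 normoxia and 46.6, 49.9 and 44.1 in hypoxia. In KYSE410 its values went from 2.08, 2.16 and 2.48 to 32.8, 30.4 and 34.04 FPKM. All hypoxic libraries were far above all normoxic ones in both lines. The rises, 3.32 ± 0.10 and 3.37 ± 0.06 (limma, adjusted p = 5.572e-07 and 3.750e-09), corresponded to 12.3-fold and 14.5-fold higher mean FPKM. The difference between the rises was 0.04 ± 0.12 (SE; interaction, adjusted p = 0.776).

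H2BC5 (chr6:26158146-26171349, plus strand) has a short model with the stem-loop and a spliced one that ends downstream. It had 4.47, 4.56 and 4.26 FPKM in KYSE150 normoxia and 23.2, 25.1 and 22.8 in hypoxia. In KYSE410 it went from 8.10, 10.5 and 9.26 to 60.8, 61.1 and 53.7 FPKM. Groups were apart in both lines, with rises of 2.18 ± 0.07 and 2.54 ± 0.09 (limma, adjusted p = 7.670e-07 and 3.717e-08). LARP1P1 on the same strand and a gene on the other strand overlap H2BC5, and the strand setting of the counts is not given in the sources used here.

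H2BC7 and H2BC9 were lower in level and also rose in both lines. H2BC7 had 1.09, 0.201 and 0.557 FPKM in KYSE150 normoxia and 5.23, 10.7 and 6.05 in hypoxia, a rise of 2.34 ± 0.27 (limma, adjusted p = 1.835e-04). In KYSE410 it rose by 1.65 ± 0.15, from 0.219 ± 0.0890 to 2.89 ± 0.854 FPKM (SD, n = 3). H2BC9 went from 1.87, 1.41 and 1.55 FPKM to 9.38, 9.42 and 9.77 in KYSE150, a rise of 2.02 ± 0.09 (limma, adjusted p = 2.322e-06), and rose by 1.96 ± 0.18 in KYSE410. For both genes the hypoxic libraries were all above the normoxic ones in both lines. H2BC4 rose by 1.15 and 1.39, and H2BC18 by 1.36 and 2.33. H2BC18 overlaps FCGR1A on the other strand and another gene on its own. H2BC8 rose by 1.23 in KYSE150 and was below the filter in KYSE410, at 0.0520 FPKM in normoxia and 1.26 in hypoxia.

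H2BC12 had the highest H2B level over the 6 libraries of either line, and it moved little. It had 41.1, 52.1 and 39.1 FPKM in KYSE150 normoxia and 42.0, 46.9 and 40.3 in hypoxia, overlapping groups with a change of -0.02 ± 0.12 (limma, adjusted p = 0.865). In KYSE410 it went from 68.2, 71.7 and 68.2 to 96.9, 107 and 102 FPKM, a rise of 0.55 ± 0.04 (adjusted p = 4.028e-06) that was 0.11 with the length trend removed. H2BC11 had 11.0, 8.83 and 6.55 FPKM and then 11.8, 16.8 and 10.5 in KYSE150, which overlap (0.52 ± 0.21, limma, adjusted p = 0.0581). Without normoxia replicate 1 or hypoxia replicate 3 it was called higher there (adjusted p = 0.0251 and 0.0463). In KYSE410 H2BC11 rose by 0.25 ± 0.08 (limma, adjusted p = 0.0251). Leaving out any of 5 libraries (normoxia replicate 1 or 3, or any hypoxic one) ended that call, with adjusted p between 0.0515 and 0.0685. It was 0.04 with the length trend removed and 0.01 after rescaling to a common sum.

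H2BC15 was the exception among H2B genes. It had 11.7, 12.4 and 13.4 FPKM in KYSE150 normoxia and 3.56, 3.05 and 3.95 in hypoxia. In KYSE410 the values were 10.3, 9.55 and 8.83 FPKM, then 3.09, 2.64 and 2.69. All hypoxic libraries were below all normoxic ones, and the changes were -1.58 ± 0.10 and -1.47 ± 0.07 (limma, adjusted p = 1.055e-05 and 2.548e-07). Its annotated locus (chr6:27837760-27865798, plus strand, up to 3 exons) also covers H2AC16 on the same strand and H2AC15 and H2BC16P on the other.

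**Figure D3:**
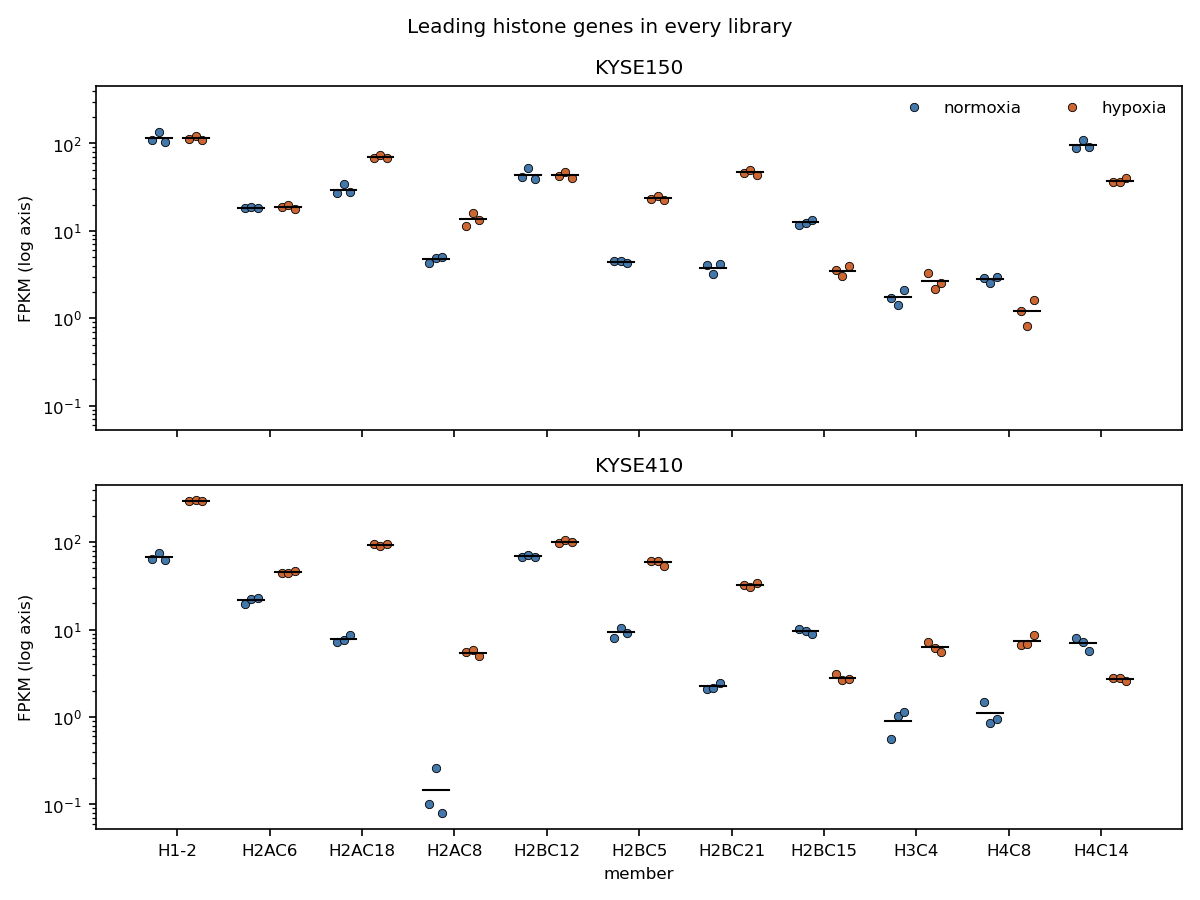
FPKM (y axis, log scale) of leading histone genes (x axis) in every library of KYSE150 and KYSE410; points are single libraries and black lines the mean of 3. H2AC18, H2AC8, H2BC5 and H2BC21 are separated upwards with hypoxia in both lines and H2BC15 and H4C14 downwards, while H1-2 and H2BC12 overlap in KYSE150 only.

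H3 carries many of the modified tail residues of chromatin, and its clustered genes were low in captured RNA. No H3 gene exceeded 7.14 FPKM in any library. In KYSE150 H3C8 rose by 0.74 ± 0.16 and H3C4 by 0.41 ± 0.14 (limma, adjusted p = 0.0048 and 0.0348). H3C4 had 1.70, 1.43 and 2.10 FPKM there in normoxia and 3.28, 2.14 and 2.55 in hypoxia, barely apart. Its call was lost when any of 4 libraries (normoxia replicates 1 and 2, hypoxia replicates 1 and 3) was left out, with adjusted p between 0.0597 and 0.120. In KYSE410 H3C4 went from 0.554, 1.03 and 1.14 FPKM to 7.14, 6.20 and 5.58, a rise of 1.95 ± 0.13 (limma, adjusted p = 1.605e-06) that differed from the KYSE150 rise by 1.53 ± 0.21 (adjusted p = 5.584e-05). A gene on the same strand overlaps H3C4. H3C10 rose in KYSE410 by 0.88 ± 0.07, from 2.05, 1.87 and 1.73 FPKM to 4.48, 4.18 and 4.20. H3C14 and H3C15, called lower in KYSE150 (-0.65 and -0.66), have the same annotated transcript and lie opposite H4C14 and H4C15, so these values are uncertain.

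H4, the partner of H3, was the class with a lower sum in KYSE150 hypoxia. H4C14 and H4C15 made up most of its signal in KYSE150, with H4C14 alone at 52.8%. H4C14 (chr1:149832659-149839767, plus strand) had 89.1, 109 and 90.1 FPKM in KYSE150 normoxia and 36.2, 36.2 and 40.1 in hypoxia. In KYSE410 it was far lower, with normoxic values of 7.98, 7.20 and 5.64 FPKM and hypoxic ones of 2.83, 2.82 and 2.61. Its groups were apart in both lines, and the changes were -1.33 ± 0.10 and -1.07 ± 0.11 (limma, adjusted p = 2.131e-05 and 1.825e-05). H4C15 (chr1:149854045-149861210, minus strand) had 65.6, 83.3 and 71.1 FPKM and then 23.1, 24.4 and 25.4 in KYSE150. In KYSE410 it had 7.05, 5.41 and 5.49 FPKM and then 2.22, 2.29 and 2.26. The changes were -1.55 ± 0.10 and -1.09 ± 0.09 (limma, adjusted p = 1.046e-05 and 6.428e-06). The 2 genes have identical coding sequences over 309 bases, and each overlaps an H3 gene on the other strand, so their separate values are uncertain.

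H4C8 (chr6:26277609-26285638, minus strand) moved in opposite directions in the 2 lines, the only histone gene called both ways. It had 2.90, 2.52 and 2.94 FPKM in KYSE150 normoxia and 1.21, 0.827 and 1.62 in hypoxia, a change of -0.79 ± 0.14 (limma, adjusted p = 0.0017). In KYSE410 it went from 1.49, 0.864 and 0.952 FPKM to 6.65, 6.93 and 8.68, a rise of 2.01 ± 0.13 (adjusted p = 1.254e-06). The groups did not overlap in either line, and the difference of 2.79 ± 0.20 (interaction, adjusted p = 4.672e-07) was the largest among the histone genes tested. H4C9 rose in KYSE150 from 1.47, 1.82 and 1.31 FPKM to 4.69, 5.63 and 6.47 (1.38 ± 0.13, limma, adjusted p = 6.134e-05), while in KYSE410 it had 1.60 ± 0.398 and 2.09 ± 0.460 FPKM (SD, n = 3) and was called higher only under median-of-ratios and quantile scaling (0.39 and 0.48). H4C5 rose in KYSE410 by 1.82 ± 0.11, from 0.595, 0.858 and 0.865 FPKM to 5.65, 5.79 and 4.41. H4C11 and H4C12, identical in coding sequence, were called higher in KYSE410 (0.53 and 0.62), and neither call held with the length trend removed (0.09 and 0.16, adjusted p = 0.395 and 0.185).

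Of the 27 histone genes that passed the filter in both lines, 10 were called higher in each. These were H2AC8, H2AC18, H2AC19, H2BC4, H2BC5, H2BC7, H2BC9, H2BC18, H2BC21 and H3C4. Of these 10, H2AC8, H2BC7, H2BC9, H2BC18 and H3C4 passed in KYSE410 only through their hypoxic levels, as did H2BC7 in KYSE150. There they could enter the test only as rises. Called lower in both were H2BC15, H4C14 and H4C15. H2AC18 and H2AC19 have identical coding sequences, as have H4C14 and H4C15, so the members of each pair may not be separate results. A further 8 were called higher in KYSE410 but not in KYSE150, namely H1-2, H2AC6, H2AC7, H2BC11, H2BC12, H3C10, H4C11 and H4C12. The 2 lines share no library. Within lines, 23.5% of all tested genes were called higher in KYSE150 and 31.2% in KYSE410, and 38.8% and 51.9% lower. The share of all genes called alike in both lines was not computed, so these shared counts have no background of their own.

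The difference in response itself was tested for 32 histone genes. In 13 the change was called higher in KYSE410 than in KYSE150 (background 27.3%), and in 5 lower (background 36%). After H4C8, the largest differences were those of H2AC19 (2.24 ± 0.13), H2AC18 (2.22 ± 0.12), H1-2 and H2AC7 (2.03 ± 0.57). In normoxia, 15 of the 32 were called lower in KYSE410 than in KYSE150 (background 38.8%) and 8 higher (background 40.4%). H4C14 and H4C15 had the largest gaps, at -3.62 ± 0.11 and -3.41 ± 0.10, followed by H2AC8 at -2.33 ± 0.11 (limma, adjusted p = 9.131e-12, 6.614e-12 and 1.188e-09). The 2 tables were deposited separately, and levels across them assume comparable FPKM.

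The genes were also grouped by their annotated 3' ends. In 24 of the 59, a GENCODE transcript runs at least 100 nt past the stem-loop or ends with AATAAA in its last 50 nt, after any stem-loop. In 26 the model holds coding sequence only, and 9 have other ends. The 24 had a median level of 4.92 FPKM in KYSE150 and 3.92 in KYSE410, against 0.336 and 0.154 for the coding-only genes. They held 63.3% and 46.7% of all histone FPKM. H1-2 and H2BC12 are coding-only models that were nevertheless high. In KYSE150 21 of the 24 were tested, with 11 called higher and 6 lower, and 9 of the coding-only genes, with 2 higher and none lower (all tested genes: 23.5% higher and 38.8% lower). In KYSE410 13 of 19 tested were called higher and 3 lower, and 5 and 1 of 6 coding-only genes (all tested genes: 31.2% and 51.9%). Whether the direction differed between these groups was not tested. FPKM divides by a model's length, so a coding-only model and a long one are not scaled alike.

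H2A and H2B genes often sit head to head with a shared promoter region. RefSeq starts (GRCh38.p14), which can lie upstream of the GENCODE 29 ones, held 10 pairs within 500 bases of each other on opposite strands. These starts were 194 to 248 bases apart, and 9 of the pairs joined an H2A with an H2B gene. The other joined H2BC7 with H3C4 (223 bases). In GENCODE 29 these 2 genes are not neighbours, as H2AC7 (chr6:26198851-26199243) lies between H3C4 (chr6:26196840-26197250) and H2BC7 (chr6:26199520-26200715). Neighbours differed widely in level in some pairs and less in others. H2BC21 reached 46.9 FPKM in KYSE150 hypoxia while H2AC20, 236 bases away, reached 0.903 FPKM (means of 3), although the 3 hypoxic libraries were above the normoxic ones for both genes. H2AC6 had 18.5 and 18.8 FPKM in KYSE150 normoxia and hypoxia, and its neighbour H2BC4 had 1.34 and 4.23. H2AC8 and H2BC8, 233 bases apart, had hypoxic values above all normoxic ones in both lines.

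RefSeq promoters (GRCh38.p14) were found for 55 of the 59 genes. Letters were sought on both strands in the 250 bases before the start. Starts of the 10 pairs above lie 194 to 248 bases apart, so the stretches searched for paired genes overlap. A single match can therefore count for both genes of a pair, and the class counts are not independent. The octamer ATTTGCAT, bound by OCT1, was present before 13 of 16 H2B genes and 10 of 14 H2A genes, against 1.66% of 27305 promoters. It was before 1 of 10 H3 genes and none of the H1 or H4 genes. CCAAT was before all H1, H2A, H2B and H3 genes searched and 1 of 9 H4 genes (33.0% of all promoters). ACGTG, the core of hypoxia response elements, was before 3 of 16 H2B, 3 of 14 H2A, 2 of 9 H4 and none of the H1 or H3 genes, against 18.7% of all promoters. TATAAA was before 11 of 14 H2A, 11 of 16 H2B, 8 of 10 H3, 3 of 6 H1 and 4 of 9 H4 genes, against 11.1% of all promoters. The 2 stretches below come from a gene that rose and one that fell in both lines; capitals mark CCAAT, ATTTGCAT and TATAAA.
H2BC21, chr1:149886683-149886832, minus strand: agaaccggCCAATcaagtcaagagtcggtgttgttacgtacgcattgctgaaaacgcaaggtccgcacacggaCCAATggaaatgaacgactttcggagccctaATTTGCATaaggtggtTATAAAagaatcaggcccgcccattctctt
H4C14, chr1:149832507-149832656, plus strand: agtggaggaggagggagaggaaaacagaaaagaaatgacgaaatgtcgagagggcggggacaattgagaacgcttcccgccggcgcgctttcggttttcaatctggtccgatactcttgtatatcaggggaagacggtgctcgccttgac
The H4C14 stretch holds none of these letters. A match is a description of sequence and not a measured binding site.

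The related lists below are read against the shares of all tested genes called higher and lower, 23.5% and 38.8% in KYSE150 and 31.2% and 51.9% in KYSE410. Of 20 genes for histone mRNA transcription and 3' end processing, 5 were called higher and 11 lower in KYSE150, and 4 and 16 in KYSE410, with median changes of -0.37 and -0.58 (all genes: -0.13 and -0.21). LSM10, a U7 particle protein, had 26.4 ± 3.66 FPKM in KYSE150 normoxia and 4.73 ± 0.0288 in hypoxia, and its KYSE410 levels were 24.3 ± 1.00 and 4.56 ± 1.22 (SD, n = 3). ZNF473, a zinc finger protein of the same pathway, changed by -0.73 and -1.77, CDK9, the elongation kinase, by -0.36 and -1.68, and CPSF2, a cleavage factor subunit, by -0.74 and -1.35. SLBP and NPAT are named for their known roles, after their values were seen. SLBP, which binds the stem-loop, had 40.8 ± 4.74 and 46.2 ± 3.25 FPKM in KYSE150 and rose from 12.9 ± 0.624 to 21.0 ± 1.56 in KYSE410 (limma, adjusted p = 1.217e-05). NPAT, the coactivator of histone gene transcription, fell in both lines (-0.43 and -1.26).

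S phase genes split by line. Of the 24 listed for S phase entry and DNA replication, 10 were called higher and 8 lower in KYSE150 (median 0.03). In KYSE410 16 of 21 tested were called higher and 3 lower (median 0.74), and the response was called higher in KYSE410 for 20 of 24 (background 27.3%). In normoxia, 22 of the 24 were called lower in KYSE410 than in KYSE150 (background 38.8%). Their summed levels went from 408 to 430 FPKM in normoxia to 785 to 812 in hypoxia in KYSE410. In KYSE150 the sums were 1067 to 1121 and 1287 to 1299 FPKM. ORC1, of the origin recognition complex, rose by 0.93 and 2.03, CDT1, the licensing factor, by 1.36 and 1.99, and TYMS, thymidylate synthase, by 0.68 and 1.54. CDC25A, a phosphatase that activates CDK2, fell by 1.14 and 1.72. The part of these genes in the histone values was not tested.

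Replication-independent histone variants carry introns and poly(A) tails. Of 11 tested in KYSE150, 3 were called higher and 4 lower, and of 10 in KYSE410, 4 higher and 3 lower. The KYSE150 shares are near those of all tested genes. CENPA, the centromeric H3, rose in KYSE150 from 24.2 ± 1.40 to 32.5 ± 1.02 FPKM and fell in KYSE410 from 26.4 ± 0.480 to 6.36 ± 0.433 (SD, n = 3; limma, adjusted p = 0.0016 and 1.202e-08). H1-10 rose by 0.43 and 0.97, H2BU1 by 1.15 in KYSE150, and H3-3A by 0.73 in KYSE410. Among 19 chaperone and supply genes, 6 were called higher and 9 lower in KYSE150, and 7 and 6 in KYSE410. ASF1A, an H3-H4 chaperone, fell by 1.61 and 2.66 and HIRA, which deposits H3.3, by 0.69 and 1.13. RBBP4, a subunit of chromatin assembly complexes, rose by 0.80 and 1.24. HJURP, the CENPA chaperone, rose in KYSE150 by 1.92 and had 13.8 ± 0.883 and 14.4 ± 1.33 FPKM in KYSE410.

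**Figure D4:**
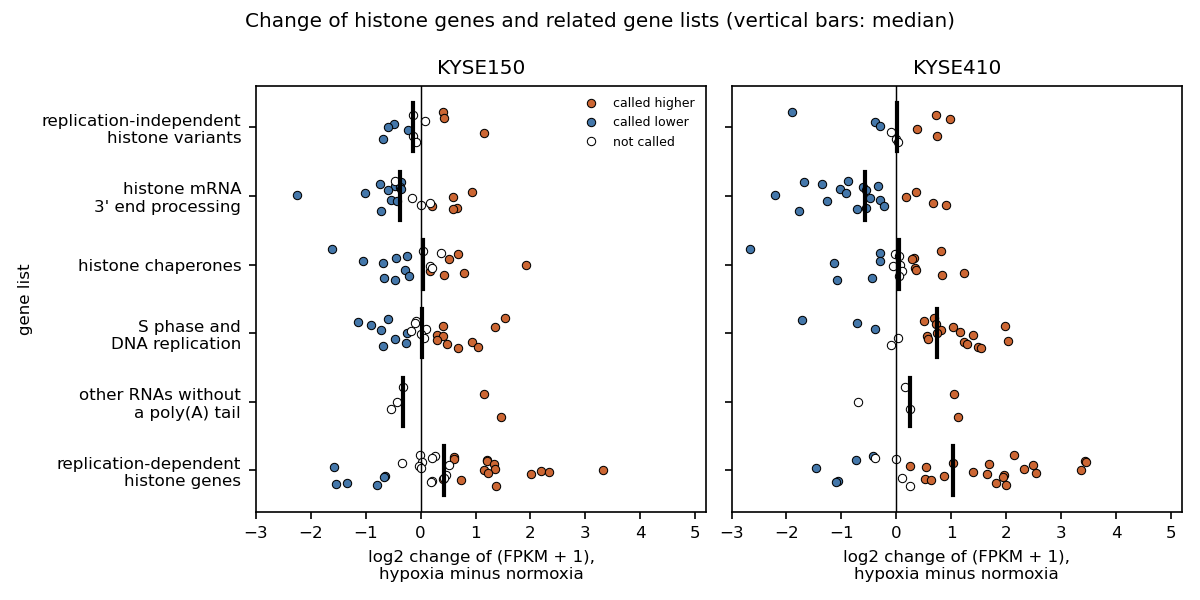
Change with hypoxia on the log2(FPKM + 1) scale (x axis) of the tested genes in related lists (y axis), in KYSE150 and KYSE410; points are genes, filled where called, and vertical bars are medians. Histone genes have the highest median in both lines, at 0.43 and 1.03, and the 3' end processing list the lowest, at -0.37 and -0.58.

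Other RNAs without a poly(A) tail were read beside these results, because bead capture should hold few of them. Of 17 such genes, 5 passed the filter in each line. SNORD3A, which encodes the U3 RNA, and RN7SK, a regulator of transcription elongation, were called higher in both lines, and RMRP, RN7SL1 and RN7SL2 in neither. SNORD3A rose by 1.46 ± 0.19 and 1.12 ± 0.31 (limma, adjusted p = 3.346e-04 and 0.0092). RN7SK had 4.58, 6.67 and 5.93 FPKM in KYSE150 normoxia and 31.7, 9.77 and 8.35 in hypoxia, so hypoxia replicate 1 set its mean. Over the list, KYSE150 sums lay between 49.1 and 61.4 FPKM in normoxia and between 52.5 and 71.2 in hypoxia, and KYSE410 sums between 29.2 and 173 and between 42.4 and 73.7. Its ranges overlapped in both lines. Whether carry-over of RNA without a tail had a part in the histone values was not tested.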

How the data were processed

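The authors deposited 1 table of expression values per cell line, read here as FPKM; the unit was inferred from the values. The sources used here do not give the quantifier, the annotation or the strand setting. The submitters' processing notes name HISAT2 2.2.1, fastp 0.22.0, bcl2fastq 2.20 and hg38, without roles. Library depth is unknown, so no counting interval is given, and count models were not run.

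Members and related gene lists were chosen with earlier results of these data known. Groups came from the labels. Within each line, genes whose mean reached 1 FPKM were tested on the log2(FPKM + 1) scale with limma 3.58.1 in R 4.3.3 (moderated variances, trend option), and p-values were adjusted over all of them by Benjamini-Hochberg. A joint fit of all 12 libraries gave the difference in response between lines and the normoxic difference. The scripts were tested on simulated data. Any tested member could be named; per-library values were reserved for up to 4 of the highest genes per class and line and the 6 largest called changes per line, and some others were added after their values were seen. From each related list up to 4 called genes with the largest change are named.

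Gene models, lengths and stem-loops came from GENCODE 29, with all 59 genes matched by Ensembl ID or older symbol, and promoters from RefSeq (GRCh38.p14). Tables and figures were made with pandas 2.3.3, matplotlib 3.10.9 and numpy 2.4.6 under Python 3.11.15. Alternatives covered scaling, filter, pseudocount, threshold, array weights, transcript length, a replicate block and each library left out. Summing near-identical genes was added after seeing the data.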

Additional observations from a re-analysis of the deposited data

Results flagged for a closer look

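In the interaction of line and oxygen, 27.3% of all tested genes were called higher in KYSE410 and 36% lower (limma, adjusted p under 0.05). Differences below are the KYSE410 change minus the KYSE150 change on the log2(FPKM + 1) scale. For 18 of the 32 histone genes tested, the change with hypoxia differed between the lines by this interaction, so such a call is common among all genes too. It was higher in KYSE410 for H4C8 (2.79), H2AC19 (2.24), H2AC18 (2.22), H1-2 (2.14), H2AC7 (2.03), H3C4 (1.53), H4C5 (1.49), H2AC8 (1.16), H2AC6 (1.00), H2BC18 (0.97), H2BC12 (0.57), H4C15 (0.46) and H2BC5 (0.35). It was lower in KYSE410 for H4C9 (-1.13), H2AC15 (-0.95), H2AC11 (-0.66), H3C8 (-0.63) and H2AC13 (-0.60). H4C8 had every hypoxic library below the normoxic ones in KYSE150 and above them in KYSE410.

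For 11 of the 18 the call was kept under every alternative run, and for H2AC7, H2AC11, H2AC13, H2BC5, H2BC12, H3C8 and H4C15 it was lost under at least 1. H2AC11, H2AC13, H2BC5 and H3C8 lost it when single libraries were left out. For H2BC5 these were KYSE410 hypoxia replicates 1 and 2 (adjusted p = 0.0507 and 0.0521), and for H3C8 KYSE150 hypoxia replicate 3, KYSE410 normoxia replicate 3 and KYSE410 hypoxia replicate 1 (adjusted p = 0.0590, 0.0514 and 0.0580). For H2AC11 they were every KYSE410 normoxia replicate, KYSE150 normoxia replicates 1 and 2 and KYSE150 hypoxia replicates 2 and 3 (adjusted p = 0.0507 to 0.0697). For H2AC13 they were KYSE150 normoxia replicate 3, KYSE150 hypoxia replicate 2, KYSE410 normoxia replicates 1 and 2 and KYSE410 hypoxia replicate 1 (adjusted p = 0.0537 to 0.0654). In KYSE410 the groups and the inferred library sets cannot be told apart.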

How the results depend on the processing

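Of the calls within lines, 19 of 21 in KYSE150 and 21 of 25 in KYSE410 held under every alternative run. The others were H2AC17 and H3C4, and H1-4, H2BC11, H4C11 and H4C12. Of uncalled genes, 7 of 12 in KYSE150 and 4 of 4 in KYSE410 were called under at least 1 alternative. In KYSE150 these were H2BC11 (under 7, 0.52 to 0.70), H3C2 (6, 0.48 to 0.58), H3C10 (5, 0.46 to 0.67), H2AC11 (4), H2AC7 (2), H2AC6 (1, 0.23) and H2AC15 (1, 0.32), with the replicate block among them for H2BC11 and H3C10. In KYSE410 they were H2AC11, H4C9, H3C8 (0.37 under quantile normalization) and H2AC13 (-0.385 with the length trend removed). For the difference in response 10 of 14 uncalled genes gained a call, and in normoxia 3 of 9 gained and 5 of 23 lost one. Scaling by the median of ratios moved the median change of all genes from -0.13 to 0.02 in KYSE150 and from -0.21 to -0.03 in KYSE410, and the share of calls that were higher from 37.7% to 52.2% and from 37.6% to 48.5%. Quantile normalization gave 49.3% and 49.8%, and rescaling to a common sum 26.6% in KYSE410 (median -0.42). Under these 3 scalings 14 to 20 histone genes were called higher in KYSE150 and 19 to 22 in KYSE410. For the difference in response, 9 were lower with the length trend removed, 2 at an adjusted p under 0.01, and 3 to 6 with single libraries left out; 3 came without KYSE150 hypoxia replicate 2 or 3, KYSE410 normoxia replicate 1 or 3, or KYSE410 hypoxia replicate 1. In normoxia, 23 were lower in KYSE410 with a filter of 0.1 FPKM and 24 with a pseudocount of 0.1 as well, where more genes were tested. Replicate numbers did not pair the libraries (same-number r of -0.069 to 0.084), and with the replicate block 17 and 6 histone genes were called higher and lower in KYSE150, 20 and 5 in KYSE410, 13 and 4 for the difference in response and 6 and 14 in normoxia.

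Class ratios moved or turned as follows, under median-of-ratios scaling, quantile normalization and a common sum in that order. KYSE150 H1 gave 1.12, 1.08 and 1.00, and KYSE410 H1 4.88, 3.55 and 3.56. KYSE150 H2A gave 2.26 and 2.23 under the former pair and KYSE410 H2A 6.17, 5.74 and 4.50. KYSE150 H2B gave 2.23 under the median of ratios, and KYSE410 H2B gave 2.49 there and 1.82 under a common sum. KYSE410 H3 gave 2.23, 2.40 and 1.63, and KYSE410 H4 1.57, 1.76 and 1.15. Without its highest gene, KYSE150 H1 was 0.805, H2B 2.98 and H3 0.998, and KYSE410 H1 was 0.702, H2A 3.98, H2B 3.20, H3 1.26 and H4 1.85. KYSE410 H3 was 2.65 over genes of at least 1 FPKM. With single libraries left out, KYSE150 H1 ranged from 0.940 to 1.08.

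Several changes turned sign. In KYSE150, H1-2 was 0.17, 0.11 and 0.01 under the 3 scalings, 0.092 with array weights and 0.10 without the length trend. H2BC12 was 0.15 and 0.11 under the former pair of scalings, 0.078 with array weights and 0.027 without the length trend, and H2BC17 was -0.064 with array weights. In KYSE410, H2AC13 was 0.11 and 0.13 under that pair, 0.017 with a pseudocount of 0.1 under either filter, 0.003 with 0.5 and 0.034 with array weights, and H3C8 was -0.064 under a common sum. The difference in response of H2BC21 was -0.049 under quantile normalization, -0.17 under a common sum and -0.017 without the length trend, where H2BC5 was -0.036. With single libraries left out, ranges in KYSE150 were -0.078 to 0.11 for H1-2, -0.10 to 0.098 for H2BC12, -0.078 to 0.099 for H2BC17, -0.011 to 0.067 for H2AC6, -0.93 to 0.084 for H2AC7 and -0.030 to 0.34 for H4C12. In KYSE410 they were -0.165 to 0.080 for H2AC13 and -0.017 to 0.19 for H3C8, and for the difference of H2BC21 -0.013 to 0.14. Other uncalled differences in response that turned were H2BC8 (1.76 with a pseudocount of 0.1, where it was called, and 0.28 with 0.5), H2BC9 (0.27 and 0.064), H2BC4 (-0.011 with 0.1), H2AC17 (-0.46), H2BC4 (-0.17), H4C11 (-0.18) and H4C12 (-0.088) with the length trend removed, and H2AC17 (-0.035) and H2BC15 (-0.092) under a common sum. In normoxia they were H2AC11, H2AC13, H4C5, H4C9 and H4C12, to values of -0.08 to 0.175. The causes were not tested.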
